A study of Mus musculus with 20 samples.

Results

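The cadherin and protocadherin genes are 99 of the 21631 protein-coding genes in the mouse annotation used here. They were chosen by symbol alone: Cdh followed by a number, or a name beginning with Pcdh, Celsr or Fat followed by a number. Of the 99 genes, 57 belong to the clustered protocadherins, with 14 Pcdha, 22 Pcdhb and 21 Pcdhg genes, and the other 42 lie outside these clusters. The measurement was the binding of Suz12 to chromatin by ChIP-seq, and 78 of the 11943 merged Suz12 regions lay within 1 kb of either annotated end of a member gene. Of these 78 regions, 13 lay at Pcdha genes, 13 at Pcdhb genes, 20 at Pcdhg genes and 32 at non-clustered genes.

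All libraries came from wild-type E14 mouse embryonic stem cells, a line kept here in serum with leukemia inhibitory factor on gelatin. Treated cells received DRB at 100 µM for 12 h or triptolide at 10 µM for 9 h. DRB blocks transcription at the step to elongation through the kinase Cdk9, and triptolide blocks initiation through TFIIH. Each drug had its own 0 h cells as its untreated group. The groups DRB 12 h, triptolide 9 h, DRB 0 h and triptolide 0 h held 2 libraries each, and the remaining 12 of the 20 samples were not analysed here. The replicates are described as biological, but no label says which came from separate cultures, so each p-value measures the spread between these libraries, which may in part be technical. Treated and untreated libraries ran on different sequencing lanes according to the column names, so lane and treatment cannot be told apart.

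Suz12 belongs to PRC2, the Polycomb complex that methylates histone H3 at lysine 27. In embryonic stem cells PRC2 sits mainly on CG-rich promoters of silent developmental genes. Cadherins are calcium-dependent adhesion proteins. Classical type I and type II cadherins join like cells through catenins. Non-clustered protocadherins and the large Celsr and Fat proteins act in neural wiring and tissue polarity, and clustered protocadherins give single neurons a surface identity. In the Pcdha and Pcdhg clusters each variable first exon has its own promoter and is spliced to constant exons shared by the cluster, while each Pcdhb gene is a single coding exon.

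The 8 count libraries held 1323928 to 7340033 reads over the counted regions. Values are given as CPM, reads per 1000000 over all counted regions after TMM scaling of the library total. In each pair the DRB library with index ATCACG precedes the one with index TGACCA and triptolide replicate 1 precedes replicate 2. The spread within each group exceeded sampling noise (chi-square over degrees of freedom, 2.47 to 8.65). For the labelled cell type, 7 genes active in embryonic stem cells were looked up. Of these, 6 genes, Pou5f1, Nanog, Esrrb, Zfp42, Dppa4 and Tdgf1, had no Suz12 peak within 1 kb of an end in any of the 8 lists, as was so for 63.2% of all protein-coding genes. The exception, Sox2, had a peak in the 4 treated lists and not in the untreated ones. Suz12 binding gives no expression level, and reads from part of the cells with strong binding cannot be told apart from weaker binding in all cells.

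Suz12 peaks lay at the ends of 68 of the 99 member genes in at least 1 list. A peak in all 8 lists was found at 41 members (41.4%), against 13.9% of all protein-coding genes. Peaks confined to treated cells, and present in all 4 of their lists, were found at 2 members, Pcdhga2 and Pcdhga3, against 4.03% of all protein-coding genes. The opposite pattern was found at no member, and at only 0.00462% of all protein-coding genes. Among the non-clustered members 21 of 42 had a peak in all 8 lists, 4 in some of them and 17 in none. Among the clustered genes 20 of 57 had a peak in all 8 lists, made up of 4 Pcdha, 3 Pcdhb and 13 Pcdhg genes, and 14 had none. The treated lists held 30 and 35 clustered genes at DRB 12 h and 34 and 37 at triptolide 9 h, against 21 and 37 at DRB 0 h and 37 and 37 at triptolide 0 h. The DRB 0 h replicate 1 list was thus the sparsest over the clusters. Without that list 25 clustered genes had a peak in all the others. With each list held to the length of the shortest, 13 clustered genes had a peak in all 8 and neither Pcdhga2 nor Pcdhga3 met the rule for a gained peak.

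Peak presence is listed here by role, and a difference between roles was not tested. Of the type I cadherins, Cdh2, Cdh3 and Cdh4 had a peak in all 8 lists. Cdh1 (E-cadherin, which joins embryonic stem cells and epithelia) had a peak in 1 treated list alone, and Cdh15 (M-cadherin of muscle) had none. Of the type II cadherins, Cdh7, Cdh8, Cdh11, Cdh20, Cdh22 and Cdh24 had a peak in all 8 lists. Cdh5 (VE-cadherin of endothelium), Cdh6, Cdh9, Cdh10, Cdh12, Cdh18 and Cdh19 had none. All 5 remaining Cdh genes, Cdh13, Cdh16, Cdh17, Cdh23 and Cdh26, lacked peaks at their ends. Of the non-clustered protocadherins, Pcdh1, Pcdh7, Pcdh8, Pcdh10, Pcdh11x, Pcdh17, Pcdh18 and Pcdh19 had a peak in all 8 lists. Pcdh9 had one in 3 treated and 3 untreated lists, Pcdh15 in 2 untreated lists alone, and Pcdh12 and Pcdh20 in none. Celsr1 and Celsr2 had a peak in all 8 lists and Celsr3 in all but the sparse DRB 0 h replicate 1 list. Fat3 and Fat4 had a peak in all 8 lists, and Fat1 and Fat2 had none. At Pcdha6, Pcdha7, Pcdha8, Pcdha9 and Pcdhgc5, and at Pcdhb3, Pcdhb4, Pcdhb6, Pcdhb8, Pcdhb11, Pcdhb13, Pcdhb16, Pcdhb18 and Pcdhb19, no peak lay within 1 kb of an end.

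Promoters of the non-clustered members with and without peaks differed in their CG content. RefSeq promoter sequences of build GRCm38.p6, each running from 250 bases before to 50 bases after the start, matched 28 of the 42 non-clustered members. Chromosome 18 was not covered, so Cdh2, Pcdh1 and Pcdh12 had no match, and the shares over all genes rest on 17274 promoters elsewhere. Unmatched members included genes with a peak, such as Cdh1 and Cdh11, and genes without one, such as Cdh5. For each gene the first listed entry was used. It lay over 1 kb from either annotated end at Cdh6, Cdh10, Cdh12, Cdh18, Fat1 and Fat2, which had no peak at an end. The same held for Fat4, Pcdh7, Pcdh9 and Pcdh15, which had one. The promoter itself overlapped a Suz12 region in 16 of 17 members with a peak and in 1 of 11 without. The ratio of observed to expected CG dinucleotides reached 0.6 in 13 of 17 promoters of members with a peak, against 0 of 11 promoters of members without one. Over all protein-coding genes it reached 0.6 in 71.8% of promoters of genes with a peak in at least 1 list, against 36.1% of promoters of genes without a peak and 48.9% of all promoters. The median number of CG sites was 21 in members with a peak, against 5 in members without one. The members with a peak but a ratio under 0.6 were Fat4, Pcdh19, Pcdh7 and Pcdh15, and the peak of Pcdh15 did not overlap its RefSeq promoter. Cdh6 was the one member without a peak near an annotated end whose RefSeq promoter overlapped a Suz12 region, and that region had a log2 change of -0.84.

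**Figure D1:**
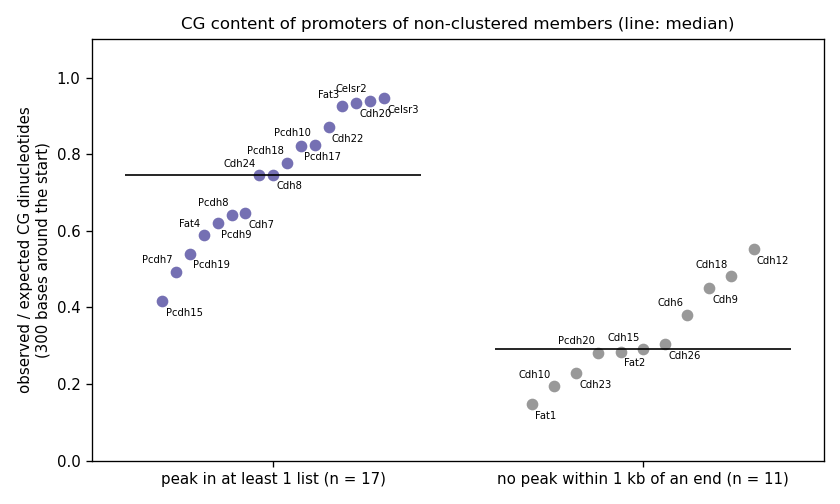
Observed over expected CG dinucleotides (vertical axis, a ratio without unit) in the 300-base promoters of 28 non-clustered cadherin and protocadherin genes. Genes with a Suz12 peak within 1 kb of an annotated end in at least 1 list are on the left and genes without one on the right. Each point is 1 gene and the line is the median; 13 of the 17 genes on the left and 0 of the 11 on the right reached 0.6.

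The promoters of 5 genes show this contrast in bases. Celsr3 (chr9:108825795-108826094, plus strand) and Cdh24 (chr14:54641315-54641614, minus strand) lay under regions where Suz12 rose in treated cells. Pcdh10 (chr3:45378148-45378447, plus strand) and Pcdh9 (chr14:93890630-93890929, minus strand) lay under regions where it fell, and Cdh9 (chr15:16728665-16728964, plus strand) had no peak. The sequences are from RefSeq, build GRCm38.p6, 5′ to 3′ on the strand of the gene, with each CG dinucleotide in capitals, and hold 25, 30, 24, 18 and 8 CG sites in the order given.
Celsr3: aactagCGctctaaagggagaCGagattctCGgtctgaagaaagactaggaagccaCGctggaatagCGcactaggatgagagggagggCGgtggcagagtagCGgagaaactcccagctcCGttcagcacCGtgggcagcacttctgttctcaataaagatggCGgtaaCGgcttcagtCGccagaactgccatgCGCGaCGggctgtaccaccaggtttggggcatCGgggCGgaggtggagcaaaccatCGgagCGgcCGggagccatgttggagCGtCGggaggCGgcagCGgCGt
Cdh24: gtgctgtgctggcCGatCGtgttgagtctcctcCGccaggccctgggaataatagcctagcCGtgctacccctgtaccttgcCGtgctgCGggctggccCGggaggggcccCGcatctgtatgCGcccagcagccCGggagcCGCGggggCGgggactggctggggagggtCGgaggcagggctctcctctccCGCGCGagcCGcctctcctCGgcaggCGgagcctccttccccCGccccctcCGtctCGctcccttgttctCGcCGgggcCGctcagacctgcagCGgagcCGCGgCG
Pcdh10: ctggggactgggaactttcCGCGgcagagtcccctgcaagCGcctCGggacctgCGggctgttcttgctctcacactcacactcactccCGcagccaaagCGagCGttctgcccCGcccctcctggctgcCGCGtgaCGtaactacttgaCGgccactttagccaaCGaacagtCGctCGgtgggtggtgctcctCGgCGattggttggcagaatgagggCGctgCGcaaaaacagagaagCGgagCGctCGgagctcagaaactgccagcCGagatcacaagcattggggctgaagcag
Pcdh9: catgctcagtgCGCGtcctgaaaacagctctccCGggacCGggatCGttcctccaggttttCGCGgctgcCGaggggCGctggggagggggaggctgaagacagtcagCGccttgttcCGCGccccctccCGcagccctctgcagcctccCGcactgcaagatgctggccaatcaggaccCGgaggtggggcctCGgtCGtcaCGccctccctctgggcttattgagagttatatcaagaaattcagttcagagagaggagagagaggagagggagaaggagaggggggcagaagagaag
Cdh9: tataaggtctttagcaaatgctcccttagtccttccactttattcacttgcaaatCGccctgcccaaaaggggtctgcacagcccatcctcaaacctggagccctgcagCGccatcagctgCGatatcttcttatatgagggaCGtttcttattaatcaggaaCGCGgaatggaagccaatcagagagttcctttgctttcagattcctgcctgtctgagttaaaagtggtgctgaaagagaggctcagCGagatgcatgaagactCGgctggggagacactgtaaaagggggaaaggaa

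Over both drugs together, Suz12 counts fell at 49 and rose at 6 of the 78 member regions (edgeR quasi-likelihood test, Benjamini-Hochberg adjusted p under 0.05 over all 11943 regions). Over all regions 28.9% fell and 27.9% rose. The median log2 change was -0.46 over member regions and 0.05 over all regions. A region with peaks in treated lists alone, or in untreated lists alone, entered the count table through the lists of those libraries, so its difference was favoured by that choice and is given as a description. Of the 68 member regions with peaks in both kinds of list, 46 fell and 3 rose. Most member regions belong to the 4281 regions with a peak in all 8 lists, of which 59.1% fell and 10.3% rose, with a median of -0.38. All 4 treated libraries lay below all 4 untreated libraries at 39 member regions, and above them at 6, where 25.2% and 24.4% of all regions did so. The split depends on the scaling. With TMM factors computed on the regions with a peak in all 8 lists, called here constitutive scaling, the median over all regions moved to 0.41 and the member regions split into 22 that fell and 17 that rose. Shares of all regions called were not counted with that scaling, so its counts here and below stand beside this median alone. Relative to the median of all regions, the member median was -0.51 with TMM and -0.50 with constitutive scaling.

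Pcdha and Pcdhb regions fell together. Of 13 Pcdha regions 12 fell and none rose, with a median log2 change of -0.75 and a range of -0.84 to -0.41, and all 13 Pcdhb regions fell, with a median of -0.74 and a range of -0.88 to -0.64. Relative to the median of all regions these medians were -0.80 and -0.79. Among regions with a peak in all 8 lists, all 9 Pcdha and all 6 Pcdhb regions fell, with medians of -0.79 and -0.76. With constitutive scaling both medians were -0.38, 8 Pcdha and 6 Pcdhb regions fell, and all 26 regions kept a negative log2 change. The calls lost with it were at Pcdhb9, Pcdhb10, Pcdhb14, Pcdhb15, Pcdhb17, Pcdhb20 and Pcdhb22, at the wider region of Pcdha2, at the narrow region of Pcdha3 and at both regions of Pcdha5. Of the 20 Pcdhg regions 4 fell, 1 rose and 15 did not pass the test, with a median of -0.10. With constitutive scaling none of the Pcdhg regions fell and 7 rose, with a median of 0.26. Of these 7, Pcdhga1, Pcdhga2 and Pcdhga3 had peaks in treated lists alone, so their rises are a description. Among Pcdhg regions with a peak in all 8 lists the median was -0.28 with TMM and 0.088 with constitutive scaling. The direction of the Pcdhg cluster as a whole thus depended on the scale. Pcdhg regions without a call with TMM scaling included Pcdhgb5 with a log2 change of 0.012 ± 0.10.

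A ratio within each library does not depend on the scaling. The summed CPM of Pcdhg regions over that of Pcdha and Pcdhb regions was 1.80 and 1.73 at DRB 12 h and 1.64 and 1.51 at triptolide 9 h, against 1.07 and 1.07 at DRB 0 h and 0.995 and 1.11 at triptolide 0 h. The treated and untreated ratios did not overlap. Summed over the 13 Pcdha regions, the libraries had 682 and 913 CPM at DRB 12 h and 966 and 998 CPM at triptolide 9 h, against 1280.1 and 1515 CPM at DRB 0 h and 1592 and 1585 CPM at triptolide 0 h. The 13 Pcdhb regions summed to 292 and 413 CPM at DRB 12 h and 460.4 and 455 CPM at triptolide 9 h, against 523 and 718 CPM at DRB 0 h and 786 and 679 CPM at triptolide 0 h. For both clusters the treated sums lay below every untreated sum. The 20 Pcdhg regions summed to 1752 and 2289 CPM at DRB 12 h and 2344 and 2198 CPM at triptolide 9 h, against 1930.0 and 2391 CPM at DRB 0 h and 2366 and 2508 CPM at triptolide 0 h, and these ranges overlap. The DRB libraries with index ATCACG were lower over all 3 clusters than those with index TGACCA at both times, and the part of the index in these sums was not tested. Within each of the 4 pairs of libraries of the same drug and the same index or replicate number, all 13 Pcdha and all 13 Pcdhb regions were lower in the treated library, while 9 to 14 of the 20 Pcdhg regions were.

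**Figure D2:**
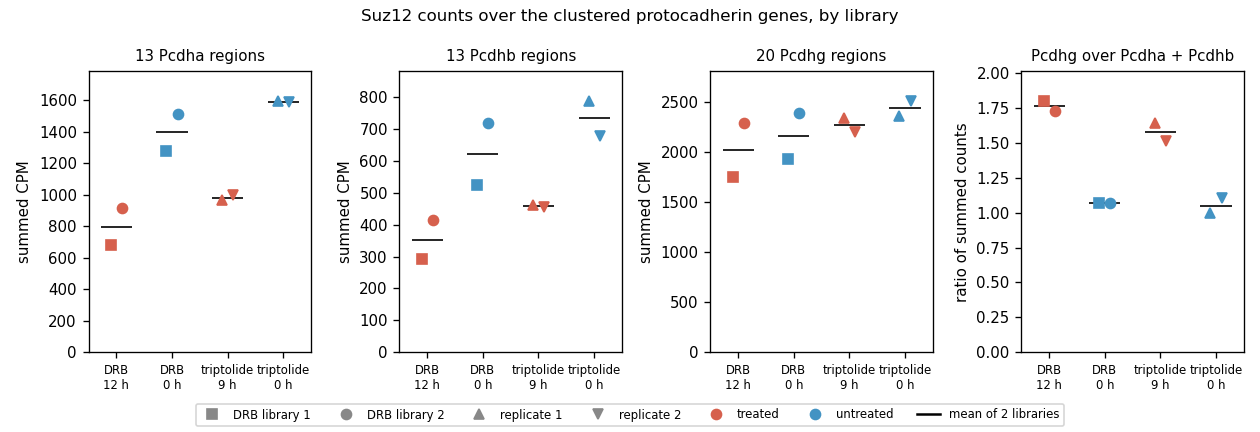
Summed Suz12 counts (CPM, TMM scaling) of the Pcdha, Pcdhb and Pcdhg regions and the ratio of Pcdhg to Pcdha plus Pcdhb, by library, with treated groups left of their own 0 h groups. Points are libraries (DRB library 1 has index ATCACG, DRB library 2 index TGACCA), lines are means of 2 libraries; the ratio was 1.51 to 1.80 in treated and 0.995 to 1.11 in untreated libraries.

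The 3 regions with the highest counts in the Pcdha cluster fell in treated cells. Pcdhac2, a C-type isoform gene at the downstream end of the variable array (chr18:37142946-37145616, mm10), had 208 and 194 CPM at DRB 12 h and 205 and 216 at triptolide 9 h, against 337 and 328 at DRB 0 h and 331 and 390.2 at triptolide 0 h (log2 change -0.75 ± 0.09, adjusted p = 2.76e-05). Pcdha12 had 80.0 and 126 CPM at DRB 12 h and 131 and 144 at triptolide 9 h, against 165 and 207 at DRB 0 h and 211 and 215 at triptolide 0 h (log2 change -0.74 ± 0.13, adjusted p = 0.000465). Pcdha11 had 54.4 and 97.1 CPM at DRB 12 h and 101 and 92.8 at triptolide 9 h, against 127 and 157 at DRB 0 h and 178 and 158 at triptolide 0 h (log2 change -0.84 ± 0.15, adjusted p = 0.000555). At all 3 regions the treated range ended below the untreated range, and the DRB 12 h library with index ATCACG was the lowest at Pcdha12 and Pcdha11. The other C-type gene, Pcdhac1, had 46.8 and 69.6 CPM at DRB 12 h and 74.0 and 78.3 at triptolide 9 h, against 108 and 119 at DRB 0 h and 119 and 128 at triptolide 0 h (log2 change -0.82 ± 0.13, adjusted p = 0.000169). Pcdha1 had 36.4 and 49.4 CPM at DRB 12 h and 46.1 and 50.8 at triptolide 9 h, against 58.3 and 86.8 at DRB 0 h and 96.9 and 80.1 at triptolide 0 h (log2 change -0.82 ± 0.15, adjusted p = 0.000531). Pcdha10 had 44.0 and 69.3 CPM at DRB 12 h and 81.0 and 76.8 at triptolide 9 h, against 101 and 116 at DRB 0 h and 134 and 119 at triptolide 0 h (log2 change -0.79 ± 0.13, adjusted p = 0.000351). The groups did not overlap at these 3 regions either. Pcdha4 had 59.2 and 72.1 CPM at DRB 12 h and 77.2 and 89.3 at triptolide 9 h, against 98.6 and 127 at DRB 0 h and 130.5 and 140.4 at triptolide 0 h (log2 change -0.74 ± 0.12, adjusted p = 0.000207), over a region that also touches the end of the gene model Gm37013. Pcdha3 had 38.0 and 62.7 CPM at DRB 12 h and 66.4 and 66.6 at triptolide 9 h, against 96.1 and 108 at DRB 0 h and 110.4 and 106 at triptolide 0 h at its wider region (log2 change -0.84 ± 0.14, adjusted p = 0.000293). A narrow second region at Pcdha3 had 10.8 and 10.2 CPM at DRB 12 h and 12.5 and 8.32 at triptolide 9 h, against 17.3 and 18.4 at DRB 0 h and 17.5 and 16.6 at triptolide 0 h (log2 change -0.75 ± 0.20, adjusted p = 0.00643). The treated libraries were again all lower. Pcdha2 had 30.0 and 39.6 CPM at DRB 12 h and 46.8 and 39.5 at triptolide 9 h, against 45.2 and 69.2 at DRB 0 h and 78.3 and 61.7 at triptolide 0 h at its wider region (log2 change -0.72 ± 0.16, adjusted p = 0.00188). Pcdha5 had 62.8 and 100.1 CPM at DRB 12 h and 96.7 and 116 at triptolide 9 h, against 102 and 143 at DRB 0 h and 153 and 139 at triptolide 0 h at its wider region (log2 change -0.52 ± 0.15, adjusted p = 0.00984). A narrow region of Pcdha5 with peaks in 2 untreated lists alone had 5.60 and 12.9 CPM at DRB 12 h and 16.3 and 10.6 at triptolide 9 h, against 15.6 and 20.7 at DRB 0 h and 19.2 and 20.2 at triptolide 0 h (log2 change -0.72 ± 0.25). At these last 3 regions the DRB 0 h library with index ATCACG fell within the treated range, so the groups overlap. Without the DRB 0 h library of index TGACCA the call at the wider region of Pcdha5 was lost, with an adjusted p of 0.0909. The narrow region of Pcdha2 was the one Pcdha region that did not pass the test (log2 change -0.41 ± 0.25, adjusted p = 0.182).

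In the Pcdhb cluster the 3 highest regions were at Pcdhb22, Pcdhb21 and Pcdhb7. Pcdhb22 had 40.0 and 59.7 CPM at DRB 12 h and 75.1 and 71.0 at triptolide 9 h, against 73.9 and 111 at DRB 0 h and 120.1 and 100.3 at triptolide 0 h (log2 change -0.74 ± 0.15, adjusted p = 0.00118). Pcdhb21 had 37.2 and 58.4 CPM at DRB 12 h and 64.9 and 67.0 at triptolide 9 h, against 88.7 and 94.6 at DRB 0 h and 109 and 95.3 at triptolide 0 h (log2 change -0.77 ± 0.14, adjusted p = 0.000468). Pcdhb7 had 30.8 and 37.8 CPM at DRB 12 h and 40.8 and 39.3 at triptolide 9 h, against 48.5 and 69.9 at DRB 0 h and 78.8 and 71.1 at triptolide 0 h (log2 change -0.86 ± 0.14, adjusted p = 0.000231). The groups were apart at Pcdhb21 and Pcdhb7 and overlapped at Pcdhb22, where the DRB 0 h library with index ATCACG lay just under the highest treated library. Pcdhb1 had 15.6 and 25.4 CPM at DRB 12 h and 25.6 and 20.0 at triptolide 9 h, against 37.0 and 39.8 at DRB 0 h and 45.3 and 37.9 at triptolide 0 h (log2 change -0.86 ± 0.17, adjusted p = 0.000997). Pcdhb2 had 24.8 and 30.3 CPM at DRB 12 h and 34.3 and 34.8 at triptolide 9 h, against 41.9 and 53.2 at DRB 0 h and 59.6 and 53.8 at triptolide 0 h (log2 change -0.76 ± 0.13, adjusted p = 0.00043). Pcdhb5 had 21.6 and 29.9 CPM at DRB 12 h and 31.9 and 34.3 at triptolide 9 h, against 40.3 and 52.5 at DRB 0 h and 65.4 and 45.5 at triptolide 0 h (log2 change -0.80 ± 0.16, adjusted p = 0.00117). All treated libraries were lower at these 3 genes. Pcdhb12 had 17.6 and 26.1 CPM at DRB 12 h and 27.1 and 27.3 at triptolide 9 h, against 35.3 and 46.4 at DRB 0 h and 55.9 and 43.0 at triptolide 0 h (log2 change -0.88 ± 0.16, adjusted p = 0.000622). Pcdhb17 had 29.6 and 38.2 CPM at DRB 12 h and 39.1 and 40.8 at triptolide 9 h, against 45.2 and 65.4 at DRB 0 h and 59.6 and 57.8 at triptolide 0 h (log2 change -0.64 ± 0.14, adjusted p = 0.00202). Pcdhb20 had 25.6 and 34.5 CPM at DRB 12 h and 38.3 and 43.3 at triptolide 9 h, against 43.5 and 58.4 at DRB 0 h and 63.7 and 59.2 at triptolide 0 h (log2 change -0.68 ± 0.14, adjusted p = 0.00141). The groups did not overlap at these 3 genes. Pcdhb15 had 8.80 and 12.4 CPM at DRB 12 h and 16.3 and 16.0 at triptolide 9 h, against 17.3 and 24.2 at DRB 0 h and 25.5 and 18.8 at triptolide 0 h (log2 change -0.72 ± 0.19, adjusted p = 0.00699). Pcdhb10 had 24.0 and 30.2 CPM at DRB 12 h and 30.5 and 24.4 at triptolide 9 h, against 26.3 and 48.7 at DRB 0 h and 51.6 and 43.0 at triptolide 0 h (log2 change -0.66 ± 0.18, adjusted p = 0.00727). Pcdhb14 had 7.20 and 18.8 CPM at DRB 12 h and 21.8 and 19.6 at triptolide 9 h, against 15.6 and 32.5 at DRB 0 h and 29.0 and 30.0 at triptolide 0 h (log2 change -0.69 ± 0.25, adjusted p = 0.0331). Of these only Pcdhb15 had separate groups. Pcdhb9 had 9.60 and 11.4 CPM at DRB 12 h and 14.6 and 16.9 at triptolide 9 h, against 9.86 and 22.4 at DRB 0 h and 22.7 and 23.1 at triptolide 0 h (log2 change -0.64 ± 0.22, adjusted p = 0.0231). At Pcdhb9, Pcdhb10 and Pcdhb14 the DRB 0 h library with index ATCACG lay among the treated values. Without the DRB 0 h library of index TGACCA the calls at Pcdhb9, Pcdhb10, Pcdhb14 and Pcdhb15 were lost, with log2 changes of -0.21, -0.36, -0.32 and -0.55 and adjusted p of 0.516, 0.144, 0.428 and 0.0864 in that order. Without DRB 12 h TGACCA the log2 change of Pcdhb14 was -1.20. Without any 1 of the 4 triptolide libraries, Pcdhb9 had adjusted p of 0.0503 to 0.0838 and Pcdhb14 of 0.0594 to 0.0909.

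The Pcdhg cluster held changes in both directions. Pcdhga12, the A-type gene nearest the C-type genes (chr18:37765705-37768651, mm10), was the one clustered region that rose, with 213 and 244 CPM at DRB 12 h and 246 and 252 at triptolide 9 h, against 136 and 185 at DRB 0 h and 182 and 194 at triptolide 0 h (log2 change 0.45 ± 0.10, adjusted p = 0.00299). The lowest treated library lay above the highest untreated one, and the rise held without each library in turn, at 0.36 to 0.58. Pcdhgb7 had 181 and 226 CPM at DRB 12 h and 235 and 241 at triptolide 9 h, against 231 and 279.8 at DRB 0 h and 274 and 318 at triptolide 0 h (log2 change -0.32 ± 0.10, adjusted p = 0.0172). Pcdhgb6 had 185 and 227 CPM at DRB 12 h and 223 and 212 at triptolide 9 h, against 224 and 272 at DRB 0 h and 284 and 316 at triptolide 0 h (log2 change -0.37 ± 0.10, adjusted p = 0.0073). These 2 genes had the highest counts of the cluster beside Pcdhga12, and their groups overlapped through the DRB 0 h library with index ATCACG. Pcdhgb4 had 130.0 and 162 CPM at DRB 12 h and 166 and 169 at triptolide 9 h, against 169 and 204 at DRB 0 h and 181 and 206 at triptolide 0 h (log2 change -0.28 ± 0.10, adjusted p = 0.0346). Pcdhga10 had 119 and 155 CPM at DRB 12 h and 165 and 149 at triptolide 9 h, against 160.2 and 187 at DRB 0 h and 182 and 190.2 at triptolide 0 h (log2 change -0.29 ± 0.11, adjusted p = 0.0308). The groups were apart at Pcdhgb4 and overlapped at Pcdhga10. With constitutive scaling the log2 changes of Pcdhgb7, Pcdhgb4 and Pcdhga10 turned positive, at 0.044, 0.083 and 0.073, and that of Pcdhgb6 was -0.0024. The 4 calls also depended on single libraries, in fits where shares of all regions called were not counted. Pcdhgb7 had adjusted p of 0.0577 to 0.0999 without triptolide 9 h replicate 1 or 2, DRB 0 h TGACCA or triptolide 0 h replicate 2. Pcdhgb4 had 0.0868 to 0.171 without 1 of these or DRB 12 h ATCACG. Pcdhga10 had 0.0578 to 0.141 without 1 of all these or triptolide 0 h replicate 1. Pcdhgb6 had 0.0503 without DRB 0 h TGACCA. The count of Pcdhg regions that fell was 0 without DRB 0 h TGACCA, 1 without triptolide 9 h replicate 1 or 2 or triptolide 0 h replicate 2, 2 without DRB 12 h ATCACG and 9 without DRB 12 h TGACCA. For all clustered regions, where 29 fell and 1 rose, 19 fell and 2 rose without DRB 0 h TGACCA and 3 rose without DRB 12 h ATCACG.

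Pcdhga2 and Pcdhga3, the 2 genes with peaks in treated lists alone, did not pass the count test with TMM scaling. Pcdhga2 had 21.6 and 33.8 CPM at DRB 12 h and 35.8 and 31.6 at triptolide 9 h, against 21.4 and 25.4 at DRB 0 h and 31.8 and 29.2 at triptolide 0 h (log2 change 0.20 ± 0.16, adjusted p = 0.315). Pcdhga3 had 19.2 and 28.3 CPM at DRB 12 h and 31.3 and 29.3 at triptolide 9 h, against 22.2 and 29.4 at DRB 0 h and 27.5 and 20.6 at triptolide 0 h (log2 change 0.10 ± 0.17, adjusted p = 0.64). The treated and untreated libraries overlapped at both genes. The first gene of the cluster, Pcdhga1, with a peak in 1 treated list, had 9.20 and 18.3 CPM at DRB 12 h and 22.2 and 18.1 at triptolide 9 h, against 7.39 and 13.4 at DRB 0 h and 11.5 and 11.2 at triptolide 0 h (log2 change 0.59 ± 0.24, adjusted p = 0.0539). With constitutive scaling Pcdhga2, Pcdhga3 and Pcdhga1 had log2 changes of 0.56, 0.46 and 0.96 and passed the test, so the call depended on the scale at all 3 genes. Their regions had peaks in treated lists alone, so these changes are a description. The C-type genes Pcdhgc3 and Pcdhgc4 had log2 changes of 0.17 ± 0.11 and -0.043 ± 0.13, and neither passed the test with TMM scaling. With constitutive scaling Pcdhgc3 rose (0.54, adjusted p = 0.00121) and Pcdhgc4 had a log2 change of 0.32 with an adjusted p of 0.0511.

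Position within the gene differed among the clusters. No Suz12 region lay at the shared upper ends of the Pcdha or Pcdhg genes, where the constant exons lie: all 10 Pcdha and all 20 Pcdhg genes with a region had it at their own lower end. Of the 13 Pcdhb genes with a region, 12 had it at the upper end and 2 at the lower end, Pcdhb22 being at both. Counted over every region in each cluster, the centre of the counted peak lay a median of 1254 bases from the lower end of its gene in Pcdha, 1883 bases in Pcdhb and 986 bases in Pcdhg. Of the 9 Pcdhb genes without a peak at an end, 8 had a region further inside, all but Pcdhb8. With every region from 1 kb below to 1 kb above each cluster counted, 13 of 14 Pcdha regions fell, 21 of 21 Pcdhb regions fell, and 5 of 23 Pcdhg regions fell while 1 rose. Among the added regions, that of Pcdha9 had a log2 change of -0.88 ± 0.14 and the 8 of Pcdhb genes lay between -0.95 and -0.48. Clustered genes are alike in sequence, and how reads that align to several copies were treated is not given in the sources used here, so a read may have been counted at a copy other than its own.

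**Figure D3:**
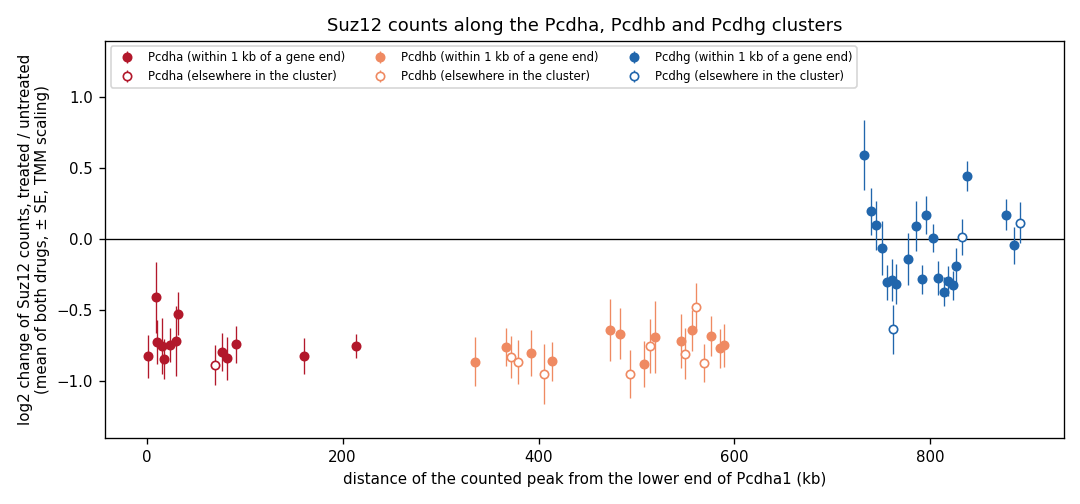
Log2 change of Suz12 counts (treated over untreated, mean of both drugs, ± SE, TMM scaling) of every region in the Pcdha, Pcdhb and Pcdhg clusters against its distance in kb from the lower end of Pcdha1. Filled points lie within 1 kb of a member's end and open points elsewhere in the cluster; the Pcdha and Pcdhb regions lie between -0.95 and -0.41, and the Pcdhg regions on both sides of 0.

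At the 32 regions of non-clustered genes 20 fell and 5 rose, with a median log2 change of -0.42. With constitutive scaling 8 fell and 10 rose, and the median relative to all regions was -0.47 on both scales. Of the 27 regions with a peak in all 8 lists, 70.4% fell and 7.41% rose, with a median of -0.45, near the shares of 59.1% and 10.3% and the median of -0.38 over all such regions. By role, 1 of 4 regions of type I cadherins fell and none rose, and 7 of 10 regions of type II cadherins fell and 3 rose. Of the 12 regions of non-clustered protocadherins 10 fell and none rose, 2 of 4 Celsr regions rose and none fell, and both Fat regions fell. All 3 rises among type II cadherins were at Cdh24 and both rises among Celsr genes at Celsr3, so the 5 rising regions belong to 2 genes. Of these 5, 2 at Cdh24 and 1 at Celsr3 had peaks in treated lists alone.

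**Figure D4:**
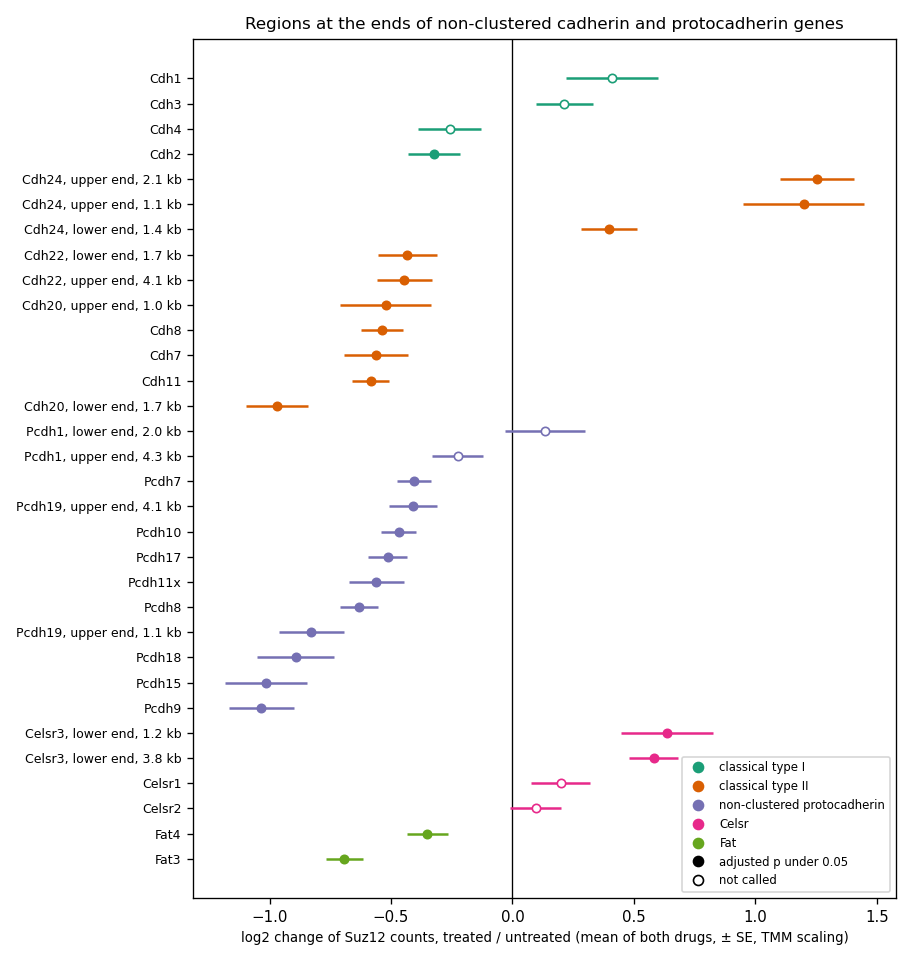
Log2 change of Suz12 counts (horizontal axis, treated over untreated, mean of both drugs, bars ± SE, TMM scaling) at the 32 regions of non-clustered genes, coloured by role and filled where the adjusted p was under 0.05. The 5 filled points right of 0 are the 3 regions of Cdh24 and the 2 of Celsr3, and the 20 filled points left of 0 reach -1.03 at Pcdh9.

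Cdh24, a type II cadherin, had 3 regions with higher counts in treated cells. Its start region (chr14:54639924-54642034, mm10) had 90.0 and 61.3 CPM at DRB 12 h and 76.4 and 76.2 at triptolide 9 h, against 34.5 and 25.2 at DRB 0 h and 35.0 and 35.0 at triptolide 0 h (log2 change 1.25 ± 0.15). A second region beyond the start had 15.6 and 21.4 CPM at DRB 12 h and 30.9 and 21.9 at triptolide 9 h, against 9.04 and 9.41 at DRB 0 h and 13.8 and 6.14 at triptolide 0 h (log2 change 1.20 ± 0.25). The counts of the groups did not overlap, but peaks were called at both regions in each treated list and in none of the untreated lists, so these changes are a description. Both regions also lie within 1 kb of an end of Acin1, a gene for an RNA-processing factor, so their reads cannot be assigned to one gene. The region at the other end of Cdh24, which Acin1 does not share and which had a peak in all 8 lists, had 57.2 and 53.3 CPM at DRB 12 h and 61.8 and 60.6 at triptolide 9 h, against 38.6 and 43.1 at DRB 0 h and 46.7 and 46.9 at triptolide 0 h (log2 change 0.40 ± 0.11, adjusted p = 0.00984). Its treated libraries were also all above its untreated ones, and with constitutive scaling its log2 change was 0.76.

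Celsr3, an atypical cadherin of planar cell polarity that guides axon tracts, rose at its start. The main region (chr9:108825222-108829005, mm10), present in all 8 lists after merging, had 136 and 129 CPM at DRB 12 h and 126 and 132 at triptolide 9 h, against 96.1 and 80.7 at DRB 0 h and 92.0 and 83.0 at triptolide 0 h (log2 change 0.58 ± 0.10, adjusted p = 0.000419). The groups were apart, and without each library in turn the log2 change was 0.51 to 0.64. A narrow region before it, with peaks in 2 treated lists alone, had 16.8 and 28.1 CPM at DRB 12 h and 30.5 and 26.0 at triptolide 9 h, against 18.9 and 16.0 at DRB 0 h and 16.9 and 15.2 at triptolide 0 h (log2 change 0.64 ± 0.19), and there DRB 12 h ATCACG lay among the untreated libraries. Celsr1, which acts in planar polarity of epithelia, had 160.4 and 123 CPM at DRB 12 h and 135 and 149 at triptolide 9 h, against 134 and 112 at DRB 0 h and 111 and 139 at triptolide 0 h (log2 change 0.20 ± 0.12, adjusted p = 0.177). Celsr2, expressed in the nervous system, had 211 and 155 CPM at DRB 12 h and 192 and 205 at triptolide 9 h, against 192 and 186 at DRB 0 h and 167 and 167 at triptolide 0 h (log2 change 0.095 ± 0.11, adjusted p = 0.457). Neither passed the test and the groups overlapped at both. With constitutive scaling both passed it, with log2 changes of 0.56 and 0.46, and without DRB 12 h TGACCA Celsr1 had an adjusted p of 0.0329. Without DRB 12 h ATCACG the log2 change of Celsr2 was -0.0077.

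The Fat genes encode giant cadherins, with Fat4 a receptor for Dchs ligands in tissue polarity and Fat3 a regulator of neuron shape. Fat3 (chr9:16499397-16503531, mm10) had 299 and 288 CPM at DRB 12 h and 300.2 and 294 at triptolide 9 h, against 479 and 443 at DRB 0 h and 475 and 515 at triptolide 0 h (log2 change -0.69 ± 0.08, adjusted p = 2.33e-05). Fat4 (chr3:38884716-38888848, mm10) had 541 and 448 CPM at DRB 12 h and 459 and 488 at triptolide 9 h, against 601 and 573 at DRB 0 h and 611 and 683 at triptolide 0 h (log2 change -0.35 ± 0.08, adjusted p = 0.00364). Both fell with TMM scaling, and treated and untreated libraries were apart at both genes. With constitutive scaling Fat3 had a log2 change of -0.32 and Fat4 one of 0.016. Per kb of counted peak, Fat4 had the highest Suz12 level of all member regions, with 119 CPM per kb in treated and 152 CPM per kb in untreated libraries on average. Pcdh7 followed with 109 CPM per kb in treated and 144 CPM per kb in untreated libraries. Averaged over all 8 libraries, the highest clustered region per kb was Pcdhac2, with 77.0 CPM per kb in treated and 130 CPM per kb in untreated libraries. In treated libraries alone Pcdhga12 was higher, with 81.0 CPM per kb, against 59.2 CPM per kb in untreated libraries.

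**Figure D5:**
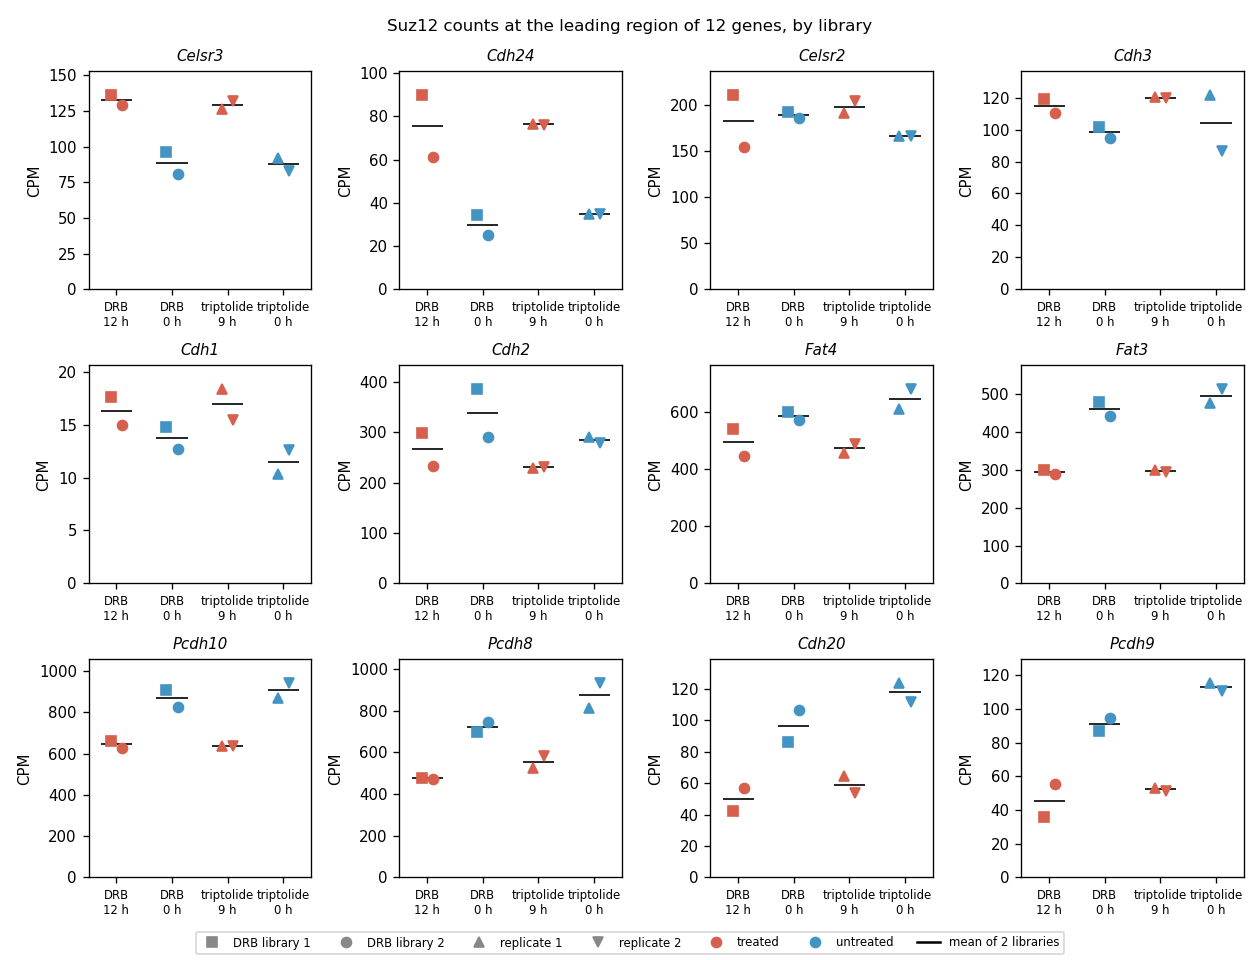
Suz12 counts (CPM, TMM scaling) at the leading region of 12 non-clustered genes in each library, with treated groups left of their own 0 h groups. Points are libraries (DRB library 1 has index ATCACG, DRB library 2 index TGACCA) and lines are means of 2 libraries. The groups do not overlap at Celsr3, Cdh24, Cdh1, Fat4, Fat3, Pcdh10, Pcdh8, Cdh20 and Pcdh9, and overlap at Celsr2, Cdh3 and Cdh2. The regions shown for Cdh24 and Cdh1 had peaks in treated lists alone.

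Among the type I cadherins only Cdh2 passed the test. Cdh2 (N-cadherin of neural and mesenchymal cells, chr18:16806537-16810179, mm10) had 299 and 234 CPM at DRB 12 h and 228 and 231 at triptolide 9 h, against 386 and 291 at DRB 0 h and 291 and 278 at triptolide 0 h (log2 change -0.32 ± 0.11, adjusted p = 0.0226). Its groups overlapped, because DRB 12 h ATCACG lay above the lower untreated libraries. Its adjusted p was 0.0646 to 0.101 without DRB 12 h TGACCA, triptolide 9 h replicate 1 or 2, DRB 0 h ATCACG or triptolide 0 h replicate 1, and with constitutive scaling its log2 change was 0.044. Cdh1 (E-cadherin, chr8:106603141-106603944, mm10) had 17.6 and 14.9 CPM at DRB 12 h and 18.4 and 15.4 at triptolide 9 h, against 14.8 and 12.7 at DRB 0 h and 10.3 and 12.6 at triptolide 0 h (log2 change 0.41 ± 0.19, adjusted p = 0.0818). The treated libraries of Cdh1 all lay above the untreated ones, at low counts, but the change did not pass the test with TMM scaling. With constitutive scaling it was 0.77. The region had a peak in 1 treated list alone, so its change is a description. Cdh3 (P-cadherin of epithelia) had 119 and 110.4 CPM at DRB 12 h and 121 and 119 at triptolide 9 h, against 102 and 94.8 at DRB 0 h and 122 and 86.3 at triptolide 0 h (log2 change 0.21 ± 0.12, adjusted p = 0.135). Cdh4 (R-cadherin, first described in retina) had 291 and 211 CPM at DRB 12 h and 225 and 240.4 at triptolide 9 h, against 352 and 252 at DRB 0 h and 249 and 308 at triptolide 0 h (log2 change -0.26 ± 0.13, adjusted p = 0.107). Cdh3 and Cdh4 did not pass the test with TMM scaling and their groups overlapped. Without triptolide 0 h replicate 1 Cdh3 had an adjusted p of 0.0264, and Cdh4 had 0.0153 without DRB 12 h ATCACG and 0.037 without DRB 0 h TGACCA. With constitutive scaling Cdh3 rose, with a log2 change of 0.58 and an adjusted p of 0.00137, and scaled to the sum of counts it had 0.41 with an adjusted p of 0.0124. The log2 change of Cdh4 was 0.11 with constitutive scaling. With the index of the DRB libraries as an added term, an alternative chosen after seeing the data, Cdh4 passed the test (log2 change -0.26, adjusted p = 0.00594).

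Of the type II cadherins other than Cdh24, all 7 regions fell with TMM scaling, and 2 of them, at the start of Cdh20 and at Cdh11, did so with constitutive scaling. Cdh20, expressed in the neural tube (chr1:104768170-104769832, mm10), had 42.4 and 57.3 CPM at DRB 12 h and 64.3 and 53.9 at triptolide 9 h, against 86.3 and 106 at DRB 0 h and 124 and 112 at triptolide 0 h at its start (log2 change -0.97 ± 0.13, adjusted p = 6.65e-05). Cdh11, a cadherin of mesenchyme and bone (chr8:102782770-102787754, mm10), had 297 and 288 CPM at DRB 12 h and 276 and 272 at triptolide 9 h, against 412 and 398 at DRB 0 h and 448 and 443 at triptolide 0 h (log2 change -0.58 ± 0.08, adjusted p = 5.27e-05). The groups did not overlap at either gene, and with constitutive scaling the log2 changes were -0.61 and -0.22. The remaining regions, at Cdh7, Cdh8, Cdh22 and the other end of Cdh20, had log2 changes of -0.56 to -0.43 with TMM scaling. With constitutive scaling these 5 regions had -0.20 to -0.068 and did not pass the test, with adjusted p of 0.0893 to 0.649.

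Among non-clustered protocadherins Pcdh9 had the largest fall, which was also the largest of all 78 member regions. Pcdh9, a protocadherin of the developing brain (chr14:93889645-93892030, mm10), had 35.6 and 55.5 CPM at DRB 12 h and 53.3 and 51.4 at triptolide 9 h, against 87.1 and 94.4 at DRB 0 h and 116 and 110.5 at triptolide 0 h (log2 change -1.03 ± 0.13, adjusted p = 5.41e-05). Pcdh15, part of the tip link of hair cells (chr10:73096593-73097568, mm10), had 10.0 and 13.4 CPM at DRB 12 h and 18.4 and 14.2 at triptolide 9 h, against 26.3 and 27.1 at DRB 0 h and 29.8 and 30.7 at triptolide 0 h (log2 change -1.01 ± 0.17), over a region with peaks in 2 untreated lists alone, so its change is a description. Pcdh18 (chr3:49755853-49757690, mm10) had 31.6 and 56.9 CPM at DRB 12 h and 48.7 and 41.4 at triptolide 9 h, against 78.1 and 79.1 at DRB 0 h and 94.9 and 86.6 at triptolide 0 h (log2 change -0.89 ± 0.16, adjusted p = 0.000481). The groups were apart at all 3 genes, and the changes with constitutive scaling were -0.67, -0.65 and -0.53. Pcdh8, a protocadherin of paraxial mesoderm and neurons (chr14:79767292-79774568, mm10), whose region covers most of the gene, had 478 and 472 CPM at DRB 12 h and 526 and 583 at triptolide 9 h, against 698 and 746 at DRB 0 h and 815 and 935 at triptolide 0 h (log2 change -0.63 ± 0.08, adjusted p = 4.28e-05). Pcdh7 (chr5:57714451-57721802, mm10), the widest member region, had 814 and 772 CPM at DRB 12 h and 790.2 and 786 at triptolide 9 h, against 1018 and 986 at DRB 0 h and 1029 and 1160.5 at triptolide 0 h (log2 change -0.41 ± 0.07, adjusted p = 0.000451). Pcdh10 (chr3:45375736-45382327, mm10) had 662 and 629 CPM at DRB 12 h and 637 and 635 at triptolide 9 h, against 908 and 828 at DRB 0 h and 868 and 945 at triptolide 0 h (log2 change -0.47 ± 0.07, adjusted p = 0.000188). The groups were apart at these 3 genes, and with constitutive scaling Pcdh7 and Pcdh10 no longer passed the test, with log2 changes of -0.038 and -0.10. Pcdh11x, Pcdh17 and the 2 regions of Pcdh19, a gene on chromosome X, had log2 changes of -0.83 to -0.41. With constitutive scaling Pcdh11x, Pcdh17 and the wider Pcdh19 region did not pass the test either, with adjusted p of 0.161, 0.102 and 0.697. At its upper annotated end Pcdh1 (chr18:38208917-38213219, mm10) had 539 and 439.9 CPM at DRB 12 h and 429 and 454 at triptolide 9 h, against 619 and 466 at DRB 0 h and 514 and 582 at triptolide 0 h (log2 change -0.23 ± 0.10, adjusted p = 0.0804). It did not pass the test and its groups overlapped. Its adjusted p was 0.0244 without DRB 12 h ATCACG and 0.0227 without DRB 0 h TGACCA, and with constitutive scaling its log2 change was 0.14. With the index of the DRB libraries as an added term it passed the test (log2 change -0.22, adjusted p = 0.00596). A second region at the lower end of Pcdh1 had a log2 change of 0.13 ± 0.17 with TMM scaling (adjusted p = 0.509) and rose with constitutive scaling (0.50, adjusted p = 0.0191).

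The 2 drugs were also compared each with its own 0 h libraries. With DRB 37 member regions fell and 4 rose, where 19.2% and 18.1% of all regions did so. With triptolide 36 fell and 5 rose, where 21.9% and 19.3% of all regions did so. The median log2 changes of the clusters were -0.79 with DRB and -0.70 with triptolide for Pcdha, -0.84 and -0.63 for Pcdhb, and -0.17 and -0.071 for Pcdhg. The difference between the drugs passed the test at none of the 78 member regions, against 0.0167% of all regions, and DESeq2 also called 0 member regions. At an unadjusted p under 0.05 in edgeR there were 0 member regions, where only 192 of all 11943 regions reached it. The drugs differ in dose and time, and an absent call does not show that they acted alike: the estimated differences of DRB minus triptolide ranged from -0.50 to 0.30 on the log2 scale. Each drug was tested with 2 libraries against 2, with the spread estimated over all 8 libraries. Where 1 library is left out, the lone library of its group is assumed to vary like the other groups. Shares of all regions called were not counted in such fits, so their counts do not tell a change at members from one over all regions. With DRB 13 regions fell without DRB 0 h TGACCA, and 2 rose without DRB 12 h TGACCA or either DRB 0 h library. With triptolide 12 fell and 2 rose without either 9 h replicate, 20 fell and 3 rose without 0 h replicate 1, and 1 rose without 0 h replicate 2.

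Genes that work with cadherins were followed in 5 lists, beside all 7656 regions at a gene end, of which 32.6% rose and 27.5% fell with a median log2 change of 0.15. Of 14 catenins and cadherin partners 11 had a counted region, of which 4 rose and 1 fell, with a median log2 change of 0.18. Of those that rose, Pkp3, Vcl and Afdn had peaks in treated lists alone, so their rises are a description. Afdn (afadin, which links junctions to actin), with peaks in treated lists alone, had 163 and 130.3 CPM at DRB 12 h and 97.3 and 108 at triptolide 9 h, against 31.2 and 41.2 at DRB 0 h and 29.2 and 44.8 at triptolide 0 h (log2 change 1.72 ± 0.15, a description), and Pkp1, a desmosomal plakophilin, had a log2 change of -0.59 ± 0.08, adjusted p = 0.000101. Of 20 desmosomal and other cadherin-domain genes 10 had a region, of which 2 rose and 6 fell, with a median of -0.43. The Fat ligand genes Dchs1 and Dchs2 had log2 changes of -0.43 ± 0.11, adjusted p = 0.0062, and -0.47 ± 0.08, adjusted p = 0.000436. Of 17 planar polarity genes and Fat partners 14 had a region, of which 7 rose and 3 fell, with a median of 0.45. Of those that rose, Vangl2, Prickle4, Dvl1, Dvl3 and Ptk7 had peaks in treated lists alone, so their rises are likewise a description. Vangl1 had a log2 change of 0.78 ± 0.14, adjusted p = 0.000477, and Dvl1, with peaks in treated lists alone, one of 0.98 ± 0.14. Of 10 repressors of Cdh1 7 had a region, of which 1 rose and 3 fell, with a median of -0.11, and Twist2 had a log2 change of -0.75 ± 0.08, adjusted p = 1.18e-05. Of 15 regulators of the protocadherin clusters 5 had a region, of which 2 rose and none fell, with a median of 0.57. Those that rose were Smchd1, a chromatin protein needed for silencing at the clusters (1.01 ± 0.15, adjusted p = 0.000149), and Dnmt3b, a DNA methyltransferase (0.64 ± 0.15, adjusted p = 0.00337). Ctcf, Smc3 and Kdm1a did not pass the test and each had a peak in 1 treated list alone. The median is the value of Ctcf (0.57 ± 0.40, adjusted p = 0.231), so it is a description. With constitutive scaling the 5 medians were 0.53, -0.060, 0.81, 0.25 and 0.93 in the same order. Every list but the desmosomal one held genes with peaks in treated lists alone, so its median with either scaling is in part a description.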

How the data were processed

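Suz12 ChIP-seq reads were aligned with Bowtie to mm10 (GRCm38) and peaks called with MACS, per the submitters' processing notes. Versions, and what was done with reads of several alignments, could not be learned from the labels or headers: not given in the sources used here. Each of the 8 deposited lists holds the peaks of 1 library and the authors' raw read counts over those peaks for 13 alignment files, per the file headers. The column names place 8 of these columns in the groups compared, and 5 columns were not used. The DRB columns give the group and the index but not the replicate number.

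Peaks of all lists were merged where they overlapped by 1 bp into 11943 regions, and the widest peak of a region gave its counts. A region belonged to a gene if it lay within 1 kb of either annotated end (RefSeq gene table). Counts of the 4 groups were fitted together in edgeR 4.0.16 (R 4.3.3) with TMM scaling, no filter and the quasi-likelihood test, and p-values were adjusted by Benjamini-Hochberg over all regions with a threshold of 0.05. Log2 changes over both drugs are the mean of the 2 drug contrasts. CPM scales the reads to 1000000 after TMM. The fit was run on simulated counts with known changes in random directions at a small share of regions, with a spread set in advance. That run does not bear on the choice of scaling. DESeq2 1.42.0 served as an alternative, beside other scalings, filters, windows, merging rules, left-out libraries and a replicate block. Tables were joined with Python 3.11.15 and pandas 2.3.3. Total reads per library outside the regions were not used.

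The members and the lists of other genes were chosen with earlier results of these data known. Values in every library are given for Cdh1, Cdh2, Celsr1 to Celsr3, Fat3 and Fat4 (Fat1 and Fat2, named by the same rule, had no region), for called non-clustered members with the largest rises (up to 10) and falls (up to 6), for the 4 with the smallest change, and in each cluster for the 3 regions with the highest CPM and every called region. Pcdh10, Pcdhga1, Pcdhga2 and Pcdhga3, the other regions beside a named gene, and the genes named from the lists of cadherin partners were added after their values were seen.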

Additional observations from a re-analysis of the deposited data

How the results depend on the processing

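Scaled to the sum of counts, 13 member regions rose over both drugs, 21 fell with DRB, 10 rose and 15 fell with triptolide, 4 clustered and 9 other regions rose, and 4 Pcdhg regions rose and 0 fell with a median of 0.10. With constitutive scaling 17 rose and 22 fell over both drugs, 9 and 11 with DRB, 15 and 6 with triptolide, 7 and 14 at clustered genes, 10 and 8 at other genes, and 7 and 0 at Pcdhg genes (median 0.26), and 6 Pcdhb regions fell. The log2 changes of Cdh2 (0.044), Fat4 (0.016), Pcdh1 (0.14), Cdh4 (0.11), Pcdhgb7 (0.044), Pcdhgb4 (0.083) and Pcdhga10 (0.073) turned positive with it. Shares of all regions called were not counted with either scaling.

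With a window of 0.5 kb 18 clustered and 6 Pcdhb regions fell, with 2.5 kb 21 Pcdhb regions fell and 31 clustered genes had a peak in all 8 lists, and with peaks closer than 1 kb merged 3 regions rose with triptolide and 3 at other genes. The next settings were chosen after seeing the data: the 3 clusters counted apart, every region in the cluster span (21 Pcdhb regions fell), the index of the DRB libraries as a term (3 clustered regions, all Pcdhg, rose and 8 Pcdhg fell), and leaving out regions of treated or untreated lists alone (3 rose over both drugs, 2 with DRB, 2 with triptolide, 2 at other genes). With peaks of at least the median width 6 clustered genes had a peak in all 8 lists, 0 clustered and 2 other genes were gained; with lists of equal length these were 13 and 0 clustered genes; with an overlap of 0.5 of the shorter interval 1 other gene was gained. The cause of these shifts was not tested.

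Leaving out each library in turn, 5 to 8 member regions rose and 39 to 53 fell over both drugs, 2 to 6 and 13 to 45 with DRB, 1 to 7 and 12 to 39 with triptolide, 1 to 3 and 19 to 34 at clustered genes, 4 to 6 and 18 to 22 at other genes, and 1 to 3 and 0 to 9 at Pcdhg genes. At Pcdha genes 10 to 12 and at Pcdhb genes 9 to 13 regions fell, and none rose. Shares of all regions called were not counted with a library left out, so these counts do not tell a change at members from one over all regions. The Pcdhg median ranged from -0.32 to 0.026 and the Celsr2 change from -0.0077 to 0.21, both turning without DRB 12 h ATCACG. Leaving out a list, 20 to 25 clustered and 21 to 22 other genes had a peak in all the rest, and 2 and 0 were gained.

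Same-numbered triptolide libraries deviated together from their group means. The correlation over all regions was 0.391 for replicate 1, and replicate 2 mirrors it by construction. With 2 pairs and no label of a shared culture, these libraries share only a number. With the replicate block, 6 member regions rose and 49 fell over both drugs, no count moved by over 1.5 times, and no named gene lost its call. DESeq2 size factors, filterByExpr and the peak with the highest count changed no call of the 46 named genes, and the DESeq2 test changed 1. The shallowest library, DRB 0 h ATCACG, held 1323928 reads over all regions, which limits the precision at narrow regions.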
